A study of Rattus norvegicus with 12 samples.

Results

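The genes described here encode the nuclear subunits of the 5 complexes of oxidative phosphorylation. They were taken as the probe sets with 1 gene symbol in the Nduf, Sdh, Uqcr, Cyc1, Cox4 to Cox8 and Atp5 families, with the probe set of highest mean signal kept for each gene. This gave 80 of the 14217 genes with a symbol, read from 89 probe sets: 33 of complex I, 4 of complex II, 8 of complex III, 19 of complex IV and 16 of complex V. Ndufa4 and Ndufa4l2 were counted with complex IV, to which the Ndufa4 protein is now assigned. In all, 74 of the 80 were above the signal limit used for testing, and the 6 below it were all of complex IV.

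Complexes I and II pass electrons from NADH and succinate to ubiquinone, complex III passes them to cytochrome c, and complex IV passes them to oxygen. The protons moved by complexes I, III and IV drive complex V, the ATP synthase. Neurons take most of their ATP from this route, and the complexes are assembled from subunits encoded in the nucleus and in mitochondrial DNA. The mitochondrially encoded subunits were not analysed here.

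The data are 12 Affymetrix arrays (Rat Genome 230 2.0), 3 for each of nucleus accumbens (NAc) with TsA, NAc with vehicle, anterior cingulate cortex (ACC) with TsA and ACC with vehicle. All rats were male Wistar rats that self-administered cocaine at 0.3 mg/kg per injection in 4 daily sessions of 2 h and died 2 h after the last, so no group was free of cocaine. The labels give TsA only as an abbreviation. It is the usual one for trichostatin A, an inhibitor of histone deacetylases. Each array carried RNA of a pool of 2 rats, and the labels do not say whether NAc and ACC pools came from the same rats.

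Markers matched the labelled structures: 7 of 7 tested markers of striatal spiny neurons were higher in NAc and 6 of 6 of cortical glutamatergic neurons lower. The summed signal of the spiny markers was 7992 to 10521 in NAc and 761 to 935 in ACC, and that of the glutamatergic markers 137 to 568 in NAc and 2383 to 2851 in ACC. All 6 oligodendrocyte markers were higher in NAc (sum 14172 to 18085, against 6402 to 7773 in ACC) and all 5 meningeal markers lower (137 to 216, against 335 to 752). Of 6 general neuronal markers 4 were lower in NAc, and of 50 cytosolic ribosomal protein genes, 35 were higher. Of 6 astrocyte markers 1 was higher and 2 lower, of 6 microglia markers 1 was lower, and 0 of 4 endothelial markers and 0 of 1 blood marker passed. Stations and times in the run records placed the arrays in 3 wash runs of 4. Run 1 held ACC TsA 1 with the 3 ACC vehicle arrays, run 2 held NAc vehicle 1 and 2 with ACC TsA 2 and 3, and run 3 held the 3 NAc TsA arrays with NAc vehicle 3.

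The comparison of the structures asks which subunit genes differ between NAc and ACC, averaged over treatments. Of the 74 subunit genes tested, 9 were higher and 9 lower in NAc at an adjusted p of 0.05 (limma), or 24.3%, against 44.8% of all 18625 probe sets tested. By direction, 24.4% of all probe sets were higher and 20.4% lower. The median difference of the subunit genes was -0.01 on the log2(signal + 16) scale, the scale of every difference given here, and that of all probe sets was 0.04. The largest fall was in Uqcrfs1 of complex III (-0.39) and the largest rise in Ndufa4l2 (0.48). In whole tissue, fewer cells of a type and less RNA per cell cannot be told apart, and the part of cell makeup in these differences was not tested.

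**Figure D1:**
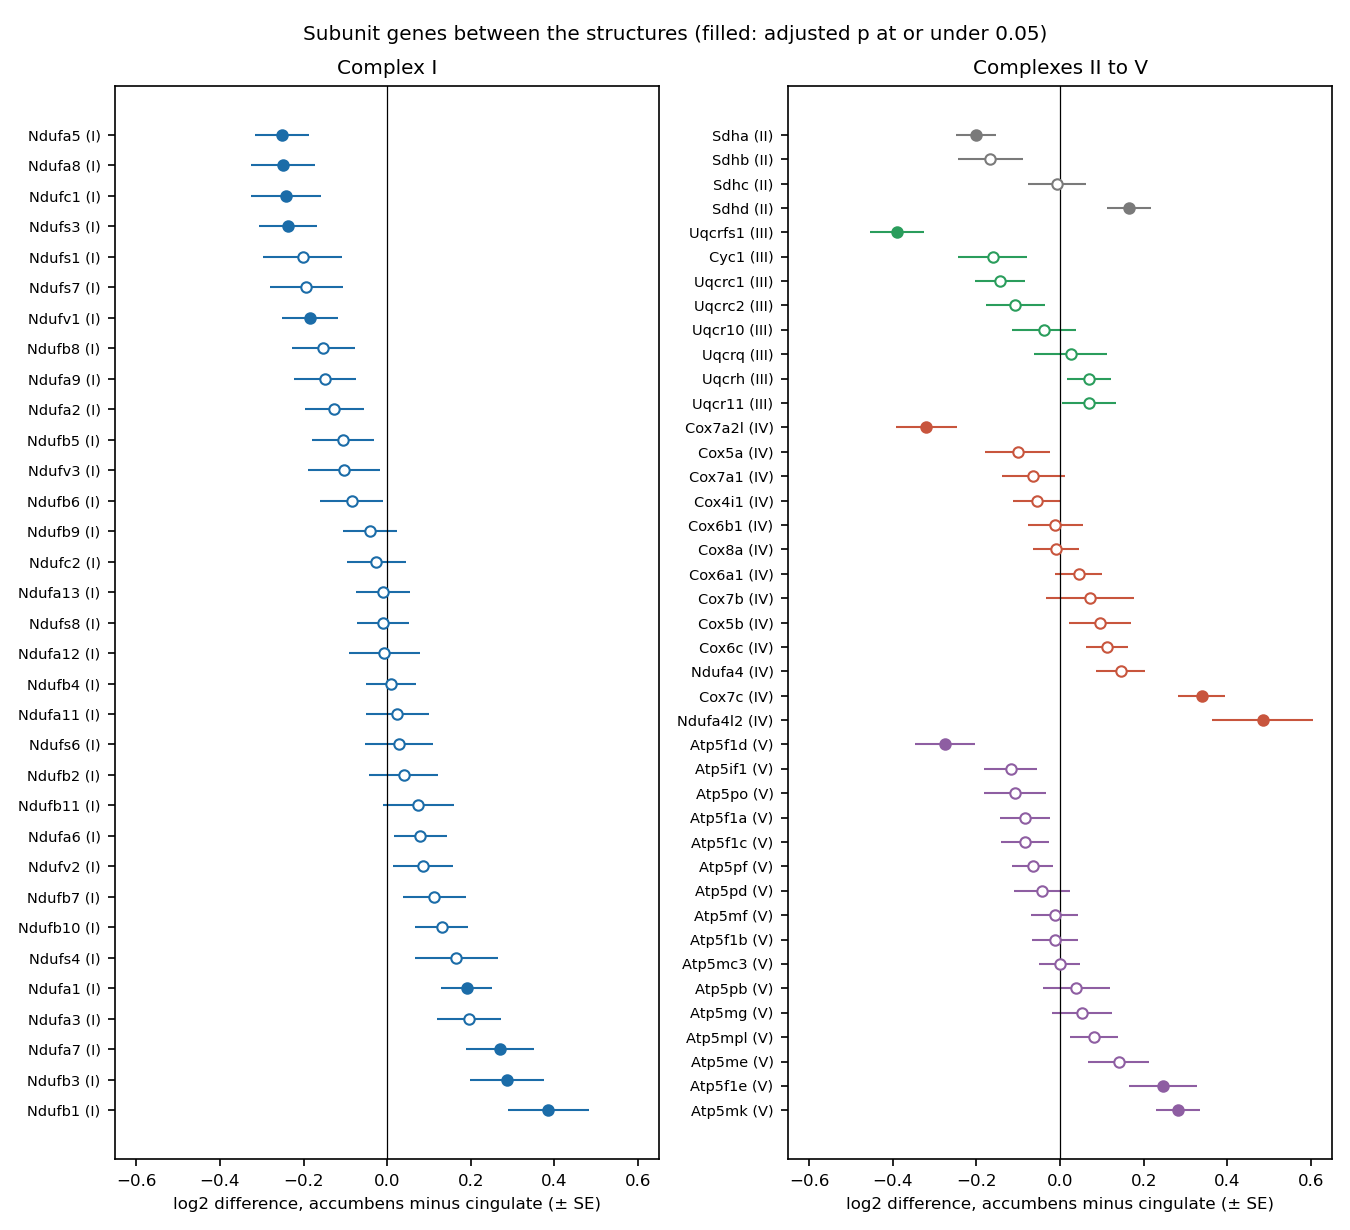
Log2 difference in signal, NAc minus ACC, for each of the 74 tested subunit genes, grouped by complex (number in brackets). Points are limma estimates with SE, n = 6 arrays per structure. Filled points passed an adjusted p of 0.05: 9 lie right of 0 (higher in NAc) and 9 left of it.

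In complex I, 4 genes were higher and 5 lower in NAc of 33 tested (27.3%), with a median of -0.01. Of the 6 core subunits tested, which carry the flavin and iron-sulphur centres or bind the quinone, 0 were higher and 2 lower. Ndufs3, a core subunit of the peripheral arm, had signals of 509, 540 and 590 in NAc (lowest, median and highest of 6 arrays, as in the sentences that follow), against 601, 615 and 785 in ACC. The structures did not overlap, and the difference was -0.24 ± 0.07 (SE; adjusted p = 0.0127, limma). Ndufv1, which binds NADH and the flavin, had 666, 789 and 828 in NAc, against 808, 875 and 1006 in ACC. These ranges overlapped (-0.18 ± 0.07, adjusted p = 0.0393), and the call did not hold without the filter on dim probe sets (adjusted p = 0.0523) or after leaving out any of 10 of the 12 single arrays. The other 4 core genes tested, all of which carry iron-sulphur centres, overlapped between the structures and did not pass. Ndufs1 had 402, 471 and 535 in NAc, against 405, 559 and 640 in ACC (-0.20 ± 0.09), and Ndufs7 had 477, 613 and 669 in NAc, against 590, 672 and 820 in ACC (-0.19 ± 0.09). Ndufs8 (365, 413 and 445 in NAc, against 385, 406 and 457 in ACC) stood at -0.01 ± 0.06, and Ndufv2 (948, 1133 and 1227 in NAc, against 958, 1036 and 1194 in ACC) at 0.08 ± 0.07.

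Accessory subunits surround the core of complex I and stabilise it. Of 27 tested, 4 were higher and 3 lower in NAc. Ndufa5, an accessory subunit of the peripheral arm, had 216, 238 and 262 in NAc, against 272, 288 and 301 in ACC (-0.25 ± 0.06, adjusted p = 0.00601). It was the only accessory subunit tested here whose structures did not overlap. Ndufa8 (-0.25 ± 0.08, adjusted p = 0.0171) and Ndufc1 (-0.24 ± 0.08, adjusted p = 0.0301) were also lower, with 946, 1199 and 1331 in NAc against 1252, 1407 and 1521 in ACC for Ndufa8, and 488, 565 and 638 in NAc against 590, 656 and 862 in ACC for Ndufc1. The 2 structures overlapped in both genes, in Ndufa8 through NAc vehicle 3. The call for Ndufc1 ended without ACC vehicle 2 or any of 6 other single arrays.

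Higher in NAc were 3 small subunits of the membrane arm. Ndufb1 had 765, 951 and 1044 in NAc, against 599, 681 and 891 in ACC (0.39 ± 0.10, adjusted p = 0.00532). Ndufb3 had 1012, 1120 and 1260 in NAc, against 740, 928 and 1095 in ACC (0.29 ± 0.09, adjusted p = 0.0180), a call that ended without ACC TsA 2. Ndufa1 had 1574, 1885 and 2044 in NAc, against 1598, 1637 and 1685 in ACC (0.19 ± 0.06, adjusted p = 0.0223), a call that ended without ACC vehicle 3 or NAc TsA 2. In Ndufa1 5 of the 6 NAc arrays were above every ACC array, and NAc vehicle 1 was below them all. Ndufa7 had 631, 808 and 901 in NAc, against 594, 622 and 822 in ACC (0.27 ± 0.08, adjusted p = 0.0164). Its direction depended on the probe set: a second, dimmer one stood at -0.33 (adjusted p = 0.00192), and the mean of both at -0.03. Likewise the second probe set of Ndufv3 stood at 0.25, against -0.10 at the brighter one.

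Complex II, succinate dehydrogenase, is also an enzyme of the citric acid cycle. Its catalytic flavoprotein gene Sdha had 896, 920 and 948 in NAc, against 1030, 1059 and 1092 in ACC, a narrow range in each structure with no overlap (-0.20 ± 0.05, adjusted p = 0.00371). Sdhd, which encodes a small membrane anchor, ran the other way with 914, 951 and 1032 in NAc, against 834, 847 and 894 in ACC, again without overlap (0.16 ± 0.05, adjusted p = 0.0215). A second probe set of Sdhd gave 0.23 (adjusted p = 0.00717). The call at the first ended without ACC TsA 3, NAc vehicle 2 or NAc TsA 1. The iron-sulphur subunit gene Sdhb had 730, 882 and 984 in NAc, against 886, 963 and 1198 in ACC (-0.17 ± 0.08), and the other anchor gene Sdhc 690, 803 and 888 in NAc, against 750, 768 and 923 in ACC (-0.01 ± 0.07). Both overlapped, and neither passed.

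Complex III had 1 gene of 8 past the threshold. Uqcrfs1, the Rieske iron-sulphur protein that hands electrons towards cytochrome c, had 921, 1028 and 1100 in NAc, against 1252, 1308 and 1575 in ACC (-0.39 ± 0.06, adjusted p = 0.000254). Every NAc array lay below every ACC array. The other subunit genes with redox or core roles overlapped and did not pass. Cyc1, the cytochrome c1 gene, had 871, 1075 and 1226 in NAc, against 1096, 1164 and 1421 in ACC (-0.16 ± 0.08). The core protein genes stood at -0.14 ± 0.06 for Uqcrc1 (996, 1133 and 1218 in NAc, against 1144, 1214 and 1412 in ACC) and -0.11 ± 0.07 for Uqcrc2 (947, 1032 and 1188 in NAc, against 964, 1140 and 1281 in ACC). A second probe set of Uqcrc2 was lower in NAc (-0.48, adjusted p = 0.00645).

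In complex IV, cytochrome c oxidase, 2 genes were higher and 1 lower of 13 tested. Cox7a2l, whose protein joins complexes III and IV into supercomplexes, had 712, 845 and 945 in NAc, against 955, 1028 and 1212 in ACC, without overlap (-0.32 ± 0.07, adjusted p = 0.00274). Cox7c, a small subunit, had 1337, 1440 and 1564 in NAc, against 1095, 1134 and 1202 in ACC, also without overlap (0.34 ± 0.06, adjusted p = 0.000257). Ndufa4l2, a paralogue of Ndufa4 known to be induced by low oxygen, was dim, with 26.7, 38.0 and 49.0 in NAc and 15, 21.7 and 28.5 in ACC. The 2 structures overlapped through NAc vehicle 1 and 2 and ACC TsA 1 (0.48 ± 0.12, adjusted p = 0.00529). Ndufa4 itself had 1957, 2140 and 2431 in NAc, against 1903, 1930 and 1995 in ACC (0.15 ± 0.06), and did not pass.

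Several subunits of complex IV exist as paralogues for different tissues. The widely expressed forms overlapped between the structures and did not pass. Cox4i1 had 2546, 3001 and 3291 in NAc, against 2932, 3036 and 3363 in ACC (-0.05 ± 0.06), and Cox6a1 had 2195, 2367 and 2634 in NAc, against 2113, 2253 and 2618 in ACC (0.04 ± 0.06). Cox6b1 stood at -0.01 ± 0.06 (1659, 1858 and 2003 in NAc, against 1570, 1888 and 1999 in ACC) and Cox8a at -0.01 ± 0.06 (2523, 2723 and 2927 in NAc, against 2574, 2759 and 2940 in ACC). Cox6c, which has no second functional form among these genes, had 2672, 2836 and 3086 in NAc, against 2527, 2574 and 2841 in ACC (0.11 ± 0.05). Cox7a1, the heart and muscle form, was dim, at 22.2 to 30.8 in NAc and 24.6 to 37.4 in ACC (-0.06 ± 0.08). The 6 genes below the signal limit were Cox4i2, Cox6a2, Cox6b2, Cox6c-ps1 (a pseudogene), Cox7b2 and Cox8b. Among them Cox6a2, the heart and muscle paralogue of Cox6a1, had 2.15, 7.58 and 10.2 in NAc, against 20.8, 24.3 and 29.7 in ACC. The structures did not overlap. When all probe sets were tested with no filter, Cox6a2 passed as lower in NAc (adjusted p = 2.18e-05, limma) and the other 5 did not pass. All 6 NAc signals of Cox6a2 lay below the signal limit of 17.4, where the added constant sets the size of a log difference, so no size is given. Cox4i2, the lung form, had 8.64, 11.5 and 14.1 in NAc, against 7.24, 13.7 and 19.2 in ACC. The testis forms were as dim, at 10.9 to 15.8 in NAc and 7.36 to 15.1 in ACC for Cox6b2 and 7.13 to 13.9 in NAc and 6 to 12.4 in ACC for Cox7b2, and Cox8b, a muscle form, was at 1.17 to 6.05 in NAc and 0.918 to 1.74 in ACC. Cox7a2, Cox8c, Atp5mc1 and Atp5mc2 were not analysed here.

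In complex V, 2 genes were higher and 1 lower of 16. Atp5f1d, the delta subunit of the rotating central stalk, had 802, 1020 and 1088 in NAc, against 1111, 1185 and 1393 in ACC, without overlap (-0.28 ± 0.07, adjusted p = 0.00729). Atp5f1e, the epsilon subunit of the same stalk, had 1406, 1711 and 1985 in NAc, against 1320, 1437 and 1716 in ACC. These overlapped (0.25 ± 0.08, adjusted p = 0.0255), and the call ended without ACC vehicle 1, ACC vehicle 3, ACC TsA 3 or NAc TsA 1. Atp5mk, a small subunit of the membrane part, had 2383, 2519 and 2716 in NAc, against 1897, 2100 and 2164 in ACC, without overlap (0.28 ± 0.05, adjusted p = 0.000746). The alpha and beta subunits of the catalytic head and the gamma shaft did not pass. Atp5f1a had 1357, 1541 and 1678 in NAc, against 1550, 1602 and 1835 in ACC (-0.08 ± 0.06), and Atp5f1b had 2280, 2547 and 2770 in NAc, against 2485, 2539 and 2787 in ACC (-0.01 ± 0.06). The shaft gene Atp5f1c had 1567, 1738 and 1836 in NAc, against 1706, 1805 and 2010 in ACC (-0.08 ± 0.06). All 3 overlapped between the structures, as did the 2 that follow. Atp5mc3, which encodes the proton-carrying ring subunit, had 2126, 2316 and 2479 in NAc, against 2229, 2279 and 2482 in ACC (0.00 ± 0.05), and Atp5if1, the inhibitor of ATP hydrolysis, had 712, 766 and 833 in NAc, against 737, 821 and 922 in ACC (-0.12 ± 0.06).

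**Figure D2:**
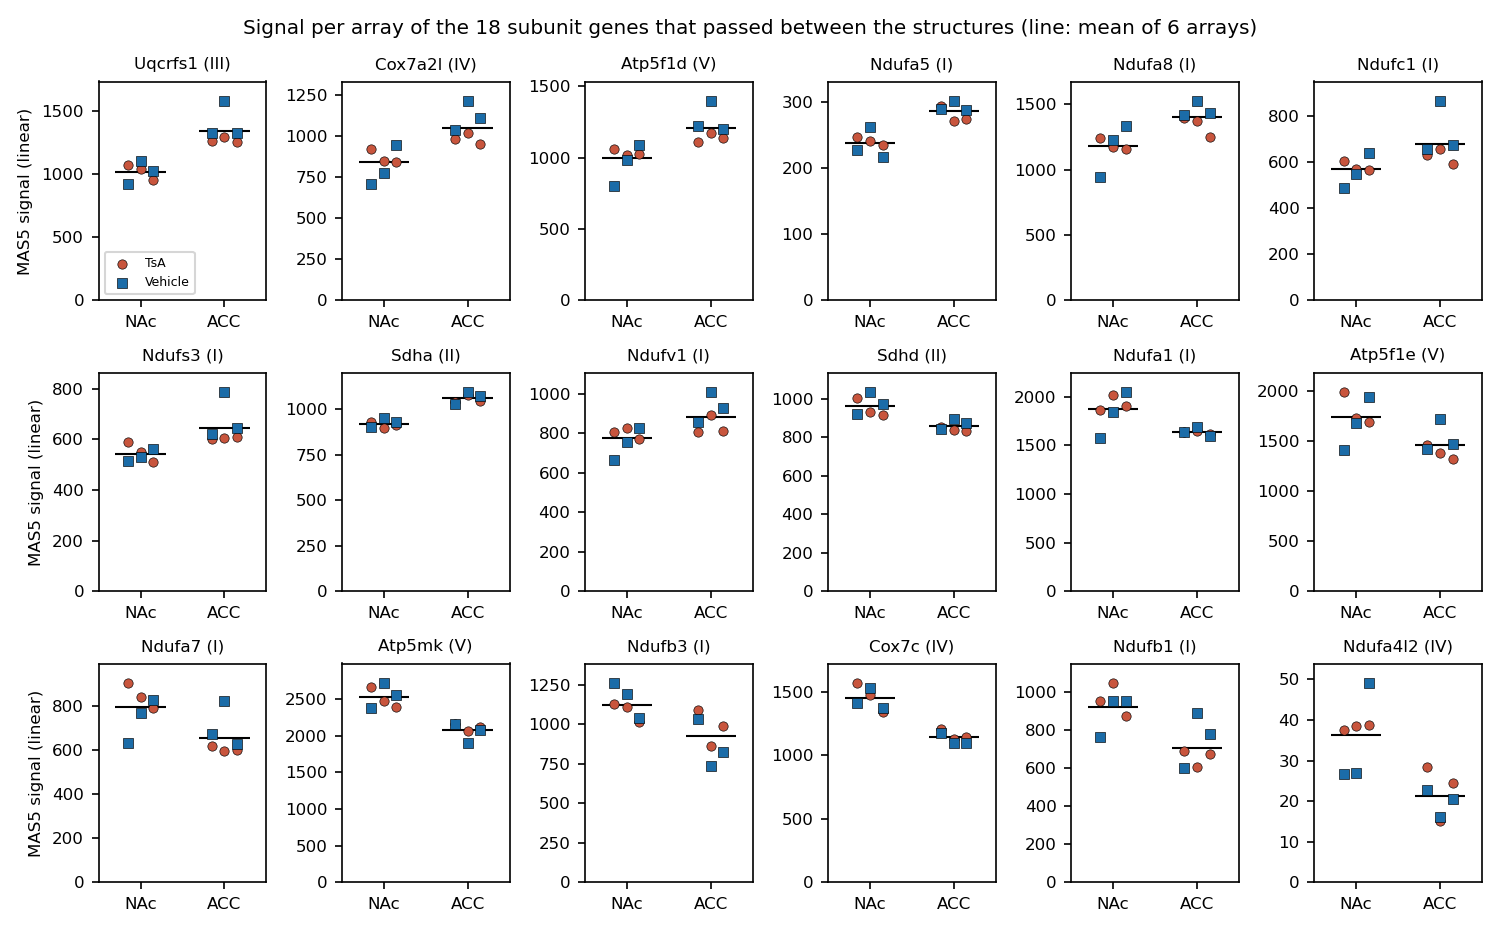
MAS5 signal (linear axis starting at 0) on each of the 12 arrays for the 18 subunit genes that passed between the structures, NAc left and ACC right, with TsA arrays as circles and vehicle arrays as squares. Lines are means of 6 arrays. In 9 of the 18 genes, such as Uqcrfs1, Cox7c and Sdha, no NAc array reaches the range of the ACC arrays.

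Across the complexes, 3 subunit genes were higher and 6 lower in NAc without overlap between the structures, 12.2% of 74, against 27.1% of all probe sets. The counts of genes past the adjusted p, 9 higher and 9 lower, moved with the wash run. With the run as a block 2 genes were higher and 2 lower, and within run 2 alone, which sets NAc vehicle against ACC TsA, 0 and 1. Over all probe sets the counts of 4551 higher and 3798 lower fell too. They were 2088 and 2111 in the first fit and 2225 and 2006 in the second. Cox7a2l passed in both (-0.55 ± 0.14 and -0.40 ± 0.12), while Uqcrfs1 did not (-0.41 ± 0.15, adjusted p = 0.0797, and -0.33 ± 0.13, adjusted p = 0.102). The split of the calls also moved with scaling: 12 were higher and 8 lower after quantile normalization, and 4 and 23 with arrays centred on their medians, which put all probe sets at a median of -0.06. Over all probe sets 3886 were higher and 4284 lower after quantile normalization, and 3156 and 5266 with centring.

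The same contrast was taken in TsA arrays alone and in vehicle arrays alone, which share no arrays. With TsA 7 subunit genes were higher and 2 lower in NAc (12.2%, against 28.3% of all probe sets), and with vehicle 3 and 11 (18.9%, against 34.5%). The medians were 0.06 with TsA and -0.09 with vehicle. Uqcrfs1, Sdha, Cox7c and Atp5mk passed in both with the same direction, 44.4% of the TsA calls and 28.6% of the vehicle calls. Uqcrfs1 stood at -0.31 with TsA and -0.47 with vehicle, Sdha at -0.21 and -0.20, Cox7c at 0.33 and 0.35, and Atp5mk at 0.25 and 0.32. Past the threshold in 1 treatment and not in the average were Ndufb8 and Uqcrc1 with vehicle and Cox5b with TsA. Ndufb8 had 125, 131 and 150 in NAc vehicle arrays, against 173, 202 and 160 in ACC vehicle arrays (-0.36 ± 0.11, adjusted p = 0.0190, limma). Uqcrc1 had 996, 1118 and 1157 in NAc vehicle arrays, against 1227, 1412 and 1273 in ACC vehicle arrays (-0.26 ± 0.08, adjusted p = 0.0324). Cox5b had 1921, 1723 and 1658 in NAc TsA arrays, against 1373, 1425 and 1471 in ACC TsA arrays (0.31 ± 0.11, adjusted p = 0.0443). In each of the 3 the arrays compared did not overlap. With 3 arrays a side this was common. It held for 40.5% of all probe sets with vehicle and 49.2% with TsA, against 23% and 45.9% of the subunit genes. The 2 contrasts were not shown to differ for any gene, since the difference of the TsA effects, which is the same test, called 0 subunit genes.

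Genes that work with the complexes were read from lists, each with a smaller share past the threshold than the 44.8% of all probe sets (24.4% higher and 20.4% lower). Of 39 assembly factor genes tested, 6 were higher and 7 lower in NAc (33.3%). Sdhaf1, which helps insert the iron-sulphur clusters of complex II, averaged 351.5 ± 46.3 in NAc and 489 ± 50.4 in ACC (SD, n = 6 each; -0.46 ± 0.09), and Tmem126b, a complex I factor, stood at -0.37 ± 0.07. Cox20 (0.41 ± 0.08), a chaperone of a complex IV subunit, and Ndufaf3 (0.35 ± 0.08), a complex I factor, were higher. Of 19 carriers of electrons or nucleotides 0 were higher and 7 lower (36.8%). Ckmt1, the mitochondrial creatine kinase, averaged 465 ± 60.3 in NAc and 734 ± 85.6 in ACC (-0.64 ± 0.09, adjusted p = 7.81e-05), the outer membrane channel gene Vdac1 stood at -0.26 ± 0.06 and the adenine nucleotide carrier gene Slc25a4 at -0.21 ± 0.05.

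Of 16 genes of the citric acid cycle 0 were higher and 5 lower in NAc (31.2%, against 44.8% of all probe sets): Dlst (-0.33), Idh3b (-0.32), Pdhb (-0.27), Idh3g (-0.22) and Cs (-0.19), the citrate synthase gene. Idh3b averaged 592 ± 12.1 in NAc and 741 ± 13.5 in ACC. Among 17 regulators of mitochondrial biogenesis 3 were higher and 2 lower (29.4%). Ppargc1a, the coactivator PGC-1α that raises transcription of these genes, averaged 102 ± 16.8 in NAc and 136 ± 21.9 in ACC (-0.36 ± 0.11, adjusted p = 0.0168), and the nuclear receptor gene Esrrg stood at -0.51 ± 0.15. Nrf1, which encodes a transcription factor of many subunit genes, averaged 33.2 ± 4.93 in NAc and 25.2 ± 1.66 in ACC (0.25 ± 0.08, adjusted p = 0.0163). Tfb1m (0.39 ± 0.09) and Twnk (0.25 ± 0.08), which act on mitochondrial RNA and DNA, were also higher.

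Subunit genes share transcription factors, so their promoters were searched on both strands for 5 motifs: CGCATGCG (NRF1), CCGGAAG (ETS factors, among them GABPA), AAGATGGC (YY1), TCAAGGTCA (oestrogen-related receptors) and TGACGTCA (CREB). A promoter was the 250 bases before and 50 after the RefSeq start of a gene (GRCr8), and 71 of the 80 genes had one. The YY1 letters were in 16 of the 71 (22.5%), against 3.44% of all 27457 promoters and 5.80% of the 8670 of tested genes. The ETS letters were in 20 (28.2%, against 9.22% and 18%), NRF1 in 6 (8.45%, against 1.81% and 3.79%), CREB in 3 (4.23%, against 1.91% and 3.31%) and the receptor motif in 2 (2.82%, against 0.412% and 0.231%). In all 34 promoters held at least 1 of these, with no overlap between different motifs. Such matches are letters, not sites shown to be bound. The first pair of promoters below belongs to the genes that followed and opposed the other subunit genes most closely across arrays, as described further on, and the second pair holds 3 kinds of motif each. Motif matches on either strand are in capitals.
Ndufa13 (chr16:19560276-19560575, plus strand): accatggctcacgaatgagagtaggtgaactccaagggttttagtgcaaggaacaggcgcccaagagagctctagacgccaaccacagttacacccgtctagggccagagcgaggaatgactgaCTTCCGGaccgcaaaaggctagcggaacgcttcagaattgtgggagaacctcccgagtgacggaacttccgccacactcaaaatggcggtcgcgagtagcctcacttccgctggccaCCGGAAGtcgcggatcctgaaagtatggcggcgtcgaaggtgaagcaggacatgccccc
Ndufs1 (chr9:72073556-72073855, minus strand): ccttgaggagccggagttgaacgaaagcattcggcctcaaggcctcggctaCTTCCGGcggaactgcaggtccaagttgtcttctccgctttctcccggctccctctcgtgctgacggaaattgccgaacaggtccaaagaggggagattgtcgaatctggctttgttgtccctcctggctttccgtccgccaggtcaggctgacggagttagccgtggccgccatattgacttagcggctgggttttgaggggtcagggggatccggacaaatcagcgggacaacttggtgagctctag
Cox8a (chr1:213833574-213833873, minus strand): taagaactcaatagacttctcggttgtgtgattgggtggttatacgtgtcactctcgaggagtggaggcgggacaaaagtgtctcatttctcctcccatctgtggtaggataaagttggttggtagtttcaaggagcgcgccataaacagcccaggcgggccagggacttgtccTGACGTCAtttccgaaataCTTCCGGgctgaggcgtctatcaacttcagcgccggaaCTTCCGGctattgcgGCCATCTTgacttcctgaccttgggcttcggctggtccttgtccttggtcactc
Atp5me (chr14:1464610-1464909, plus strand): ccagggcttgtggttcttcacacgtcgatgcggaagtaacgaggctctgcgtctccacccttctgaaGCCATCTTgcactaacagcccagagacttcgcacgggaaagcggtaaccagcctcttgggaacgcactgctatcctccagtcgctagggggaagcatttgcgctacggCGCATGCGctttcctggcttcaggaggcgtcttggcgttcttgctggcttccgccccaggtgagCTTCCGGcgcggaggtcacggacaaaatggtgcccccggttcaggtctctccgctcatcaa

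The comparison of TsA with vehicle asks whether the treatment changed the subunit genes in either structure. No subunit gene passed in NAc, in ACC, in their average or in the difference between them, and neither did any other of the 18625 probe sets (0% in each, limma). At an unadjusted p under 0.05, there were 0 subunit genes in NAc (2.19% of all probe sets), 3 in ACC (4.57%), 0 in the average (2.77%) and 4 in the difference (3.55%: Cox5b, Ndufb8, Cox7b and Ndufa7). Over all probe sets these were 408, 851, 515 and 662. As a group they leaned in opposite directions. In NAc 57 of the 74 lay above 0, with a median of 0.05 (0.01 for all probe sets), and in ACC 63 lay below 0, with a median of -0.13 (-0.02 for all probe sets), or 8.38% lower on the linear scale of signal + 16.

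In NAc the TsA arrays overlapped with the vehicle arrays in all but 1 of the subunit genes. By complex the medians were 0.05, 0.01, 0.04, 0.03 and 0.06 from I to V. Atp5pf, coupling factor 6 of the ATP synthase stalk, was the 1 without overlap, at 1120, 1088 and 1033 with TsA, against 1122, 1158 and 1149 with vehicle (-0.08 ± 0.07). The highest TsA array and the lowest vehicle array were almost level. Overlap was absent for 3.01% of all probe sets in the higher and 2.46% in the lower direction. The smallest p of complex I was that of Ndufa7, with 901, 840 and 791 with TsA, against 631, 768 and 826 with vehicle (0.19 ± 0.12). NAc vehicle 1 was the lowest array and NAc TsA 1 the highest, and the groups overlapped. In complexes II and III the smallest p were those of Sdhd, with 1004, 932 and 914 with TsA, against 921, 1032 and 971 with vehicle (-0.04 ± 0.07), and Uqcrc2, with 1071, 958 and 992 with TsA, against 1188, 1129 and 947 with vehicle (-0.10 ± 0.10). In complexes IV and V they were those of Cox5b, with 1921, 1723 and 1658 with TsA, against 1421, 1656 and 1671 with vehicle (0.16 ± 0.11), and Atp5pb, with 1872, 1798 and 1622 with TsA, against 2190, 2074 and 1666 with vehicle (-0.16 ± 0.11). All 4 overlapped between the groups.

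In ACC 23 of the 74 subunit genes (31.1%) were lower with TsA without overlap between the groups and 0 higher, against 8.47% and 3.89% of all probe sets. The subunit genes vary together, as described further on, so the 23 are not separate observations. Nor was this particular to them: 13 of 50 ribosomal protein genes (26%) were lower without overlap and 0 higher. It held for 8 of 39 assembly factors (20.5%, with 1 higher), 2 of 19 carriers (10.5%) and 1 of 16 citric acid cycle genes (6.25%). Complex I held 14 of the 23, with 31 of its 33 genes below 0. Medians by complex were -0.17, -0.09, -0.13, -0.07 and -0.06 from I to V. Ndufb8, an accessory subunit of the membrane arm, had 142, 154 and 138 with TsA, against 173, 202 and 160 with vehicle, without overlap (-0.27 ± 0.11, adjusted p = 0.751, limma). Cox5b, which binds zinc in complex IV, had 1373, 1425 and 1471 with TsA, against 1555, 2023 and 1592 with vehicle (-0.26 ± 0.11). In both genes ACC vehicle 2 was the highest array. Cox7a1, the third with an unadjusted p under 0.05, had 25.9, 24.6 and 25.8 with TsA, against 28.7, 37.4 and 32.8 with vehicle (-0.24 ± 0.11), also without overlap.

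Atp5if1 had the smallest p of complex V in ACC, with 803, 812 and 737 with TsA, against 915, 922 and 830 with vehicle (-0.18 ± 0.09), and Sdhb that of complex II, with 886, 959 and 910 with TsA, against 994, 1198 and 967 with vehicle (-0.19 ± 0.11). Neither gene overlapped between the groups. The largest positive values were those of Cox7b, with 2183, 1857 and 2019 with TsA, against 2046, 1236 and 1705 with vehicle (0.31 ± 0.15), and Ndufs1, with 640, 558 and 559 with TsA, against 580, 405 and 544 with vehicle (0.21 ± 0.13). Here ACC vehicle 2 was the lowest array. Uqcrc2 had the smallest p of complex III, with 1281, 1122 and 1194 with TsA, against 1157, 964 and 1061 with vehicle (0.18 ± 0.10), with its second probe set at 0.35. Averaged over both structures the smallest p among the subunit genes was that of Ndufs4, an accessory subunit needed for a stable NADH-binding module (-0.20 ± 0.10). It had 108, 140 and 133 with TsA in NAc, against 140, 159 and 139 with vehicle, and 107, 116 and 106 with TsA in ACC, against 162, 129 and 102 with vehicle. The groups overlapped in both structures. In complexes II to V the smallest p of the average were those of Sdhb (-0.07 ± 0.08), Uqcrfs1 (-0.07 ± 0.06), Cox7a1 (-0.09 ± 0.08) and Atp5if1 (-0.05 ± 0.06).

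The lists around the complexes showed no call with TsA. In ACC the medians were -0.08 for assembly factors (30 of 39 below 0), -0.04 for carriers, -0.02 for the citric acid cycle and 0.05 for regulators of biogenesis, and in NAc 0.03, 0.04, 0.03 and -0.02. Ribosomal protein genes had a median of -0.07 in ACC, with 38 of 50 below 0. Marker lists differed in direction in ACC. Of 6 microglia markers 5 lay below 0 with a median of -0.27, 4 had an unadjusted p under 0.05 (limma), and their summed signal was 779 to 910 with TsA, against 936 to 1108 with vehicle. Meningeal markers had a median of -0.43 there (4 of 5 below 0, sum 335 to 729 with TsA, against 694 to 752 with vehicle). All 4 endothelial markers lay below 0 with a median of -0.12, and their summed signal was 542 to 586 with TsA, against 616 to 650 with vehicle, without overlap. Of 6 astrocyte markers 5 lay below 0 with a median of -0.07 (sum 7922 to 8150 with TsA, against 7876 to 8898 with vehicle). Other lists did not fall: 4 of 6 general neuronal markers lay above 0 (median 0.04), as did 4 of 6 of cortical glutamatergic neurons (0.07). Oligodendrocyte markers had 3 of 6 above 0 and spiny neuron markers 4 of 7, both with a median of 0.00. The 1 blood marker stood at -0.05. The part of these markers in the subunit values was not tested.

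**Figure D3:**
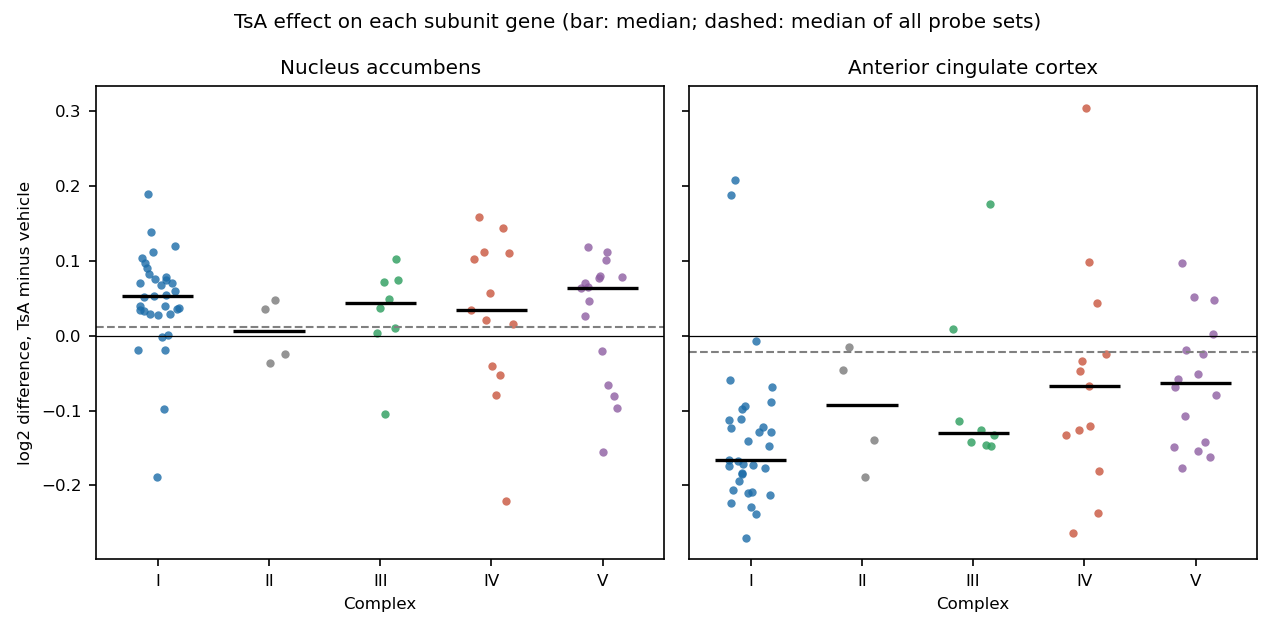
Log2 difference in signal, TsA minus vehicle, for each of the 74 subunit genes by complex, in NAc (left) and ACC (right). Points are genes, bars medians of a complex, and the dashed line the median of all 18625 probe sets. In ACC 63 genes lie below 0 and in NAc 57 lie above it, and none passed.

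These medians moved with single arrays, and the subunit genes stood furthest apart on 2 of them. On ACC vehicle 2 the subunit genes stood at a median of 0.19 above the mean of the 6 ACC arrays (63 of 74 above it), where all probe sets stood at 0.03. It was the highest ACC array for 60 of the 74 subunit genes (81.1%), against 31.1% of all probe sets. On NAc vehicle 1 they stood at -0.17 (11 of 74 above the mean, all probe sets at -0.04), and it was the lowest NAc array for 55 (74.3%, against 31.9%). The medians of the other 10 arrays lay between -0.08 and 0.07. Among these, ACC TsA 3 was the lowest ACC array for 34 of the subunit genes (45.9%, against 20% of all probe sets). NAc vehicle 3, the only vehicle array of run 3, was the highest NAc array for 31 (41.9%, against 26.2%). Without ACC vehicle 2 the TsA median in ACC was -0.05, and without NAc vehicle 1 that in NAc was -0.02, so its sign turned. Leaving out any single array gave medians from -0.16 to -0.05 in ACC and from -0.02 to 0.11 in NAc. An alternative chosen after seeing the data left out both ACC vehicle 2 and NAc vehicle 1. The median difference between the TsA effects was then 0.02, against 0.18 with all arrays.

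RNA quality was read from the 3'/5' signal ratios of control probe sets. The beta-actin ratio was 2.01 on ACC vehicle 2 and 2.38, the highest of the 12, on NAc vehicle 1, with 1.96 on the lowest array. The GAPDH ratio was 1.18 on both, within 1.12 to 1.25. The part of RNA quality was not tested. Wash runs overlapped with treatment: within run 1, which sets ACC TsA 1 against the 3 vehicle arrays, the TsA median in ACC was -0.12, and within run 3, which sets 3 TsA arrays against NAc vehicle 3, that in NAc was -0.06. Leaving out both arrays changed the structure comparison too, to 15 genes higher and 8 lower of 74, with Ndufb3, Ndufc1 and Ndufv1 no longer past the threshold. Over all probe sets 4488 were then higher and 3631 lower.

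**Figure D4:**
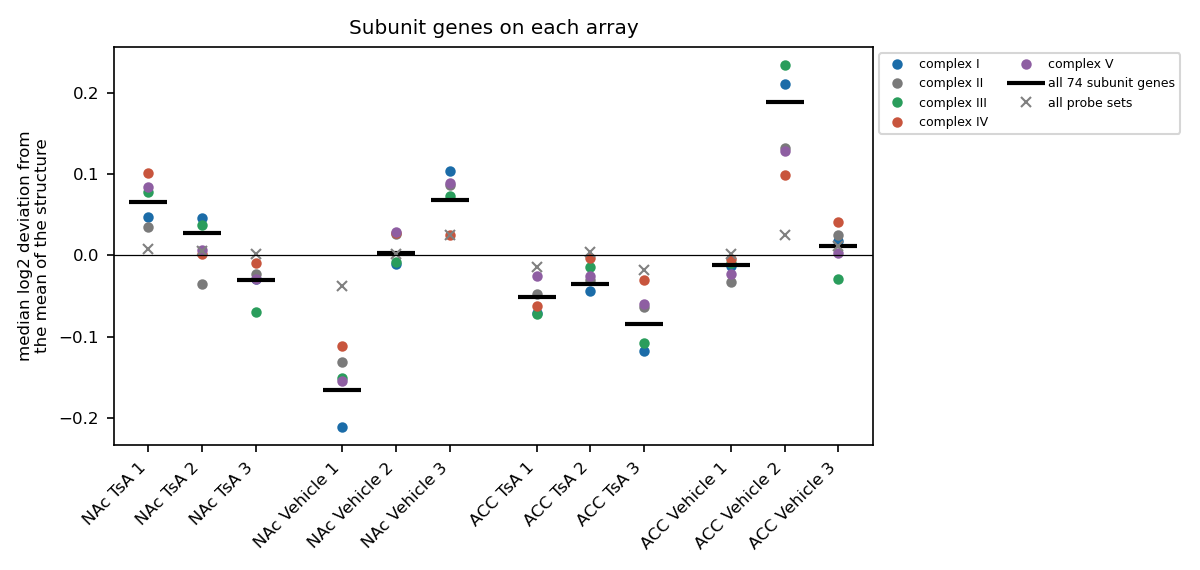
Median log2 deviation of the subunit genes from the mean of the 6 arrays of their structure, for each of the 12 arrays, TsA left of vehicle. Black bars are all 74 subunit genes, coloured points single complexes and crosses all probe sets. ACC vehicle 2 is high (0.19) and NAc vehicle 1 low (-0.17) in every complex.

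The subunit genes varied together from array to array. After the group means were taken out, each gene's values on the 12 arrays were correlated with the mean of the other subunit genes. The median Pearson r was 0.81, and 54 of 74 genes (73.0%) were above 0.7, against 13.8% of the 18551 other probe sets. These arrays share scaling and washes within runs, so r is a description. The median was 0.86 in complex I, 0.78 in II, 0.83 in III, 0.58 in IV and 0.75 in V. Closest were Ndufa13 (0.97), Ndufb11 (0.97) and Atp5pd (0.96). Measured from the mean of its structure, not of its group as for r, Ndufa13 deviated by 0.21 on ACC vehicle 2. On NAc vehicle 1 it deviated by -0.20.

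A minority ran against the others, with r below 0 for 8 genes. They were Ndufs1 (-0.81), Cox7b (-0.69), Cox5a (-0.68), Uqcrc2 (-0.67), Ndufb3 (-0.55), Atp5pb (-0.54), Cox6c (-0.26) and Ndufs4 (-0.10). The deviations that follow are again from the mean of the structure. Ndufs1, the largest core subunit of complex I, deviated by -0.41 on ACC vehicle 2 and 0.18 on NAc vehicle 1. Cox7b, a small subunit of complex IV, deviated by -0.55 and 0.23 on these. Among the genes that differed between the structures without overlap, r was 0.12 for Cox7c, 0.12 for Atp5mk and 0.18 for Ndufa5, 0.62 for Sdha, 0.68 for Sdhd, 0.81 for Ndufs3, 0.85 for Uqcrfs1, 0.88 for Cox7a2l and 0.93 for Atp5f1d.

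**Figure D5:**
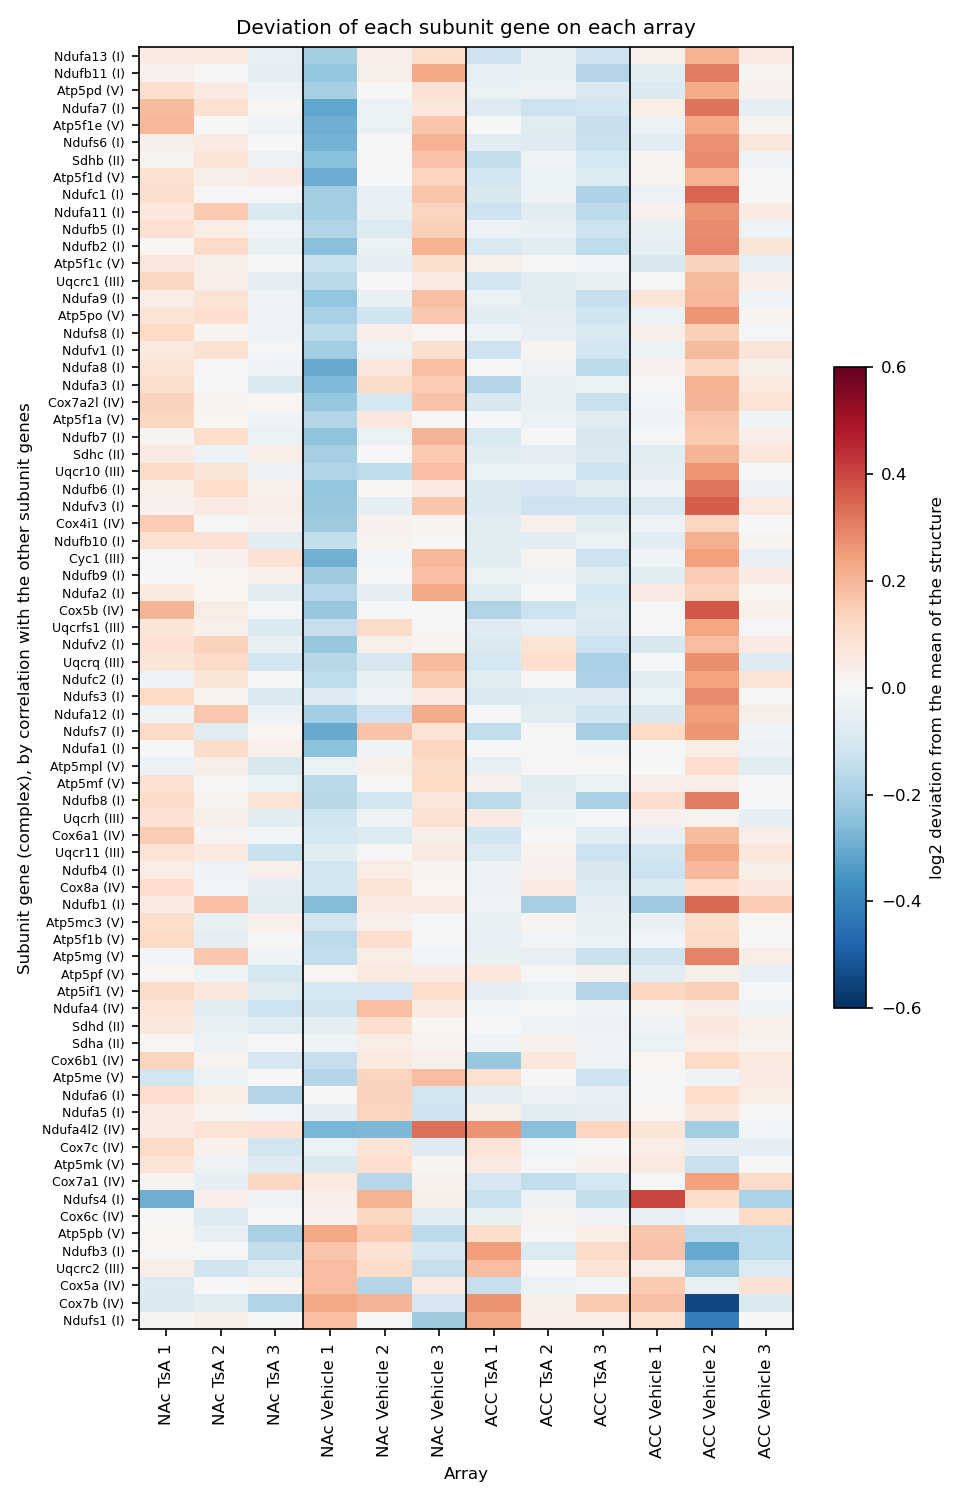
Log2 deviation of each of the 74 subunit genes (rows, complex in brackets) from the mean of its structure on each of the 12 arrays (columns, TsA left of vehicle), red above and blue below. Rows run from the highest to the lowest correlation with the other subunit genes. ACC vehicle 2 is red and NAc vehicle 1 blue in most rows, with the reverse in the lowest rows, such as Ndufs1 and Cox7b.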

How the data were processed

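Arrays were read with GCOS 1.4 and summarised by MAS5 to a linear intensity per probe set, per the submitters' processing notes. The deposited signal had been scaled by the authors: its 2% trimmed mean was 100.03 on all 12 arrays, whose medians ran from 26.8 to 33.1. Wash runs were inferred from the deposited run records, as arrays on the same fluidics station with recorded times within 10 min of each other. Precision is limited by there being 3 arrays a group.

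Of 31099 probe sets, 57 controls and the lowest 40% by mean signal (under 17.4) were left out. Platform annotation gave 1 symbol to 20826 probe sets, several to 436 and none to 9780. All 80 subunit genes were found in RefSeq by gene ID, 8 had several probe sets, and 7 matching probe sets with several symbols were left out. One limma model on log2(signal + 16) held 4 group means (lmFit, contrasts.fit, eBayes with trend, 8 residual degrees of freedom). Tests were two-sided, adjusted by Benjamini-Hochberg over 18625 probe sets at 0.05. The constant understates fold changes of dim genes. Nothing in the labels says more of the replicates than that each is a pool of rats, so p-values measure only the spread between these samples. Given in full are genes past the threshold, the smallest p per complex for TsA, isoform sets and core subunits. These members, rules and lists (subunits, assembly factors, carriers, citric acid cycle, biogenesis, and cell type markers) were chosen with earlier results of these data known.

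Tested on simulated data (18625 probe sets, 50 changed at each size), the model found 8% of log2 changes of 0.25, 36% of 0.5 and 86% of 1 for TsA in ACC, 2%, 32% and 78% for TsA in NAc, and 8%, 58% and 98% between structures. Most subunit differences were nearer the smallest of these sizes. Calls among unchanged probe sets numbered 9, 6 and 7. The simulated noise was independent between probe sets, unlike that of the real arrays, and few probe sets were changed. Between the real structures 44.8% passed, which loosens the adjusted threshold, so the simulated shares do not measure detection there. For TsA 0% passed in the real data, while the simulated data held planted changes of up to 2, which also loosen the threshold. The simulated shares therefore do not measure detection for TsA either. Alternatives covered the constant, filter, scaling, blocks, weights, trend, probe set rule and leaving out arrays. Software was limma 3.58.1 in R 4.3.3, and matplotlib 3.10.9, scipy 1.17.1, pandas 2.3.3 and numpy 2.4.6 in Python 3.11.15. Promoter sequences are from RefSeq (GRCr8). The NRF1 motif was shortened to its core after the counts of a longer form had been seen.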

Additional observations from a re-analysis of the deposited data

Results flagged for a closer look

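In each subunit gene the 6 arrays of a structure were checked for an array standing apart, by its gap to the nearest other array as a share of the whole range. The share passed Dixon's critical value for 6 arrays in 16 of 148 checks. The subunit genes vary together, so the checks are not independent and 1 odd array can flag many genes. The count is a description, with no rate over all probe sets beside it. All of the 16 were on the same 2 arrays.

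ACC vehicle 2 was the highest ACC array for 12 genes. Ndufb6 had a signal of 985 on it, against 732 to 769 on the other ACC arrays (share 0.834). The shares were 0.755 for Ndufb5, 0.705 for Ndufb10, 0.738 for Ndufs3, 0.659 for Ndufc1 and 0.628 for Ndufv3 in complex I, 0.743 for Uqcrfs1 and 0.662 for Uqcr10 in complex III, and 0.750 for Atp5f1a, 0.687 for Atp5f1b, 0.642 for Atp5pd and 0.638 for Atp5po in complex V. The same array was the lowest for Atp5mk (1897, against 2069 to 2164; 0.658) and Ndufs1 (405, against 544 to 640; 0.642).

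NAc vehicle 1 was the lowest NAc array for Atp5f1d (802, against 980 to 1088; 0.658) and Ndufb6 (627, against 746 to 796; 0.728). What set these arrays apart was not tested.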

How the results depend on the processing

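TsA called 0 subunit genes in each comparison under every alternative except array weights (12 in ACC, 4 for the difference). Over all probe sets TsA calls were 0 except with array weights (4519 in ACC, 103 on average, 969 for the difference), in run 3 alone (6 in NAc) and with the replicate block (1 on average). The estimation of array weights did not converge and gave ACC vehicle 3 a weight of 7.995. Between structures the call counts (9 higher and 9 lower) were 4 and 23 with median centring, 2 and 2 with wash run as a block, 0 and 1 within run 2, 20 higher with array weights and 15 higher with ACC vehicle 2 and NAc vehicle 1 left out. Counts over all probe sets were 3156 higher and 5266 lower with centring, and 4199 in all with the block and 4231 within run 2. With array weights 6400 were higher, and with both arrays left out 4488. Medians of the subunit genes were -0.11 with centring and -0.102 with the block. With vehicle alone the 14 calls were 24 with centring, 2 with the wash block and 40 with array weights, the counts over all probe sets 2771 and 11640 with the last 2, and the median -0.207 with centring and 0.0290 with both arrays left out. With TsA alone the 9 calls were 0 with the wash block, 19 with array weights and 14 with both arrays left out, with 2633 over all probe sets and a median of -0.0869 with the wash block. The TsA median in NAc was -0.0631 with the wash block or in run 3, and that of the difference 0.06 with the wash block and 0.0244 with both arrays left out, an alternative chosen after seeing the data. The causes were not tested.

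Leaving out single arrays gave 7 to 12 subunit genes higher and 7 to 14 lower (14 without NAc vehicle 3), 5 (without ACC vehicle 2) to 25 (without NAc vehicle 3) with vehicle alone and 3 to 11 with TsA alone (3 to 5 without any one of the 6 TsA arrays), and 7509 to 9048, 5004 to 7780 and 4013 to 5891 over all probe sets. The medians ran from -0.04 to 0.02, -0.16 to -0.03 and 0.04 to 0.07 in these 3, and for TsA from -0.16 to -0.05 in ACC, -0.02 to 0.11 in NAc, -0.07 to -0.01 on average and 0.10 to 0.25 for the difference. Turned in sign were Ndufa7 between structures (-0.0316 with the mean over its probe sets), and for TsA in NAc Uqcrc2 (0.0858 in the wash fits, 0.0613 with the mean over its probe sets), Atp5pb (0.0790 in the wash fits) and Sdhd (-0.0763 to 0.00506, the last without NAc vehicle 2), and Atp5if1 on average (0.00834 with array weights). Of the 18 genes called between the structures, 11 kept their call in all 22 alternatives other than the wash fits, and Cox7a2l in those too.

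The deviations of same-numbered samples of 2 groups correlated at r from -0.11 to 0.66, and at 0.03 to 0.66 between NAc and ACC. Samples of different numbers could correlate about as strongly, at 0.60 for NAc vehicle 3 with ACC vehicle 2. For NAc vehicle 1 with ACC vehicle 2 r was -0.67. Not every same-numbered pair was over 0.1, so the numbers were not used as pairs. Whether they mark shared rats is not known. With the replicate block 10 subunit genes were higher and 9 lower between structures.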
